A study of Homo sapiens with 10 samples.

Results

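AS1949490 is a small-molecule inhibitor of SHIP2, and transcript levels after its addition were measured in KYSE-410, a widely used human line of esophageal squamous cell carcinoma. The comparison took in 4 of the 10 libraries of the series: 2 from cells collected 48 h after AS1949490 at 20 µM, and 2 DMSO libraries (0.1% DMSO, the solvent) that the titles assign to AS1949490 as its own control. The other libraries belong to a second inhibitor with its own control and were left out of these results. Genes with a mean of at least 1 CPM (reads of a gene scaled to the total of its library) in either group were tested, which gave 17025 of the 58302 genes in the table. All libraries come from this single line. Nothing in the labels tells whether replicates were grown separately, and the p-values therefore reflect the spread between these libraries alone, which may be technical. Whether the AS1949490 cells also received DMSO is not given in the sources used here.

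SHIP2, encoded by INPPL1, removes the 5-phosphate from the lipid messenger PI(3,4,5)P3, which phosphoinositide 3-kinase (PI3K) makes at the plasma membrane and which recruits the kinase AKT. Several programmes described here have well-known readouts in RNA. The integrated stress response slows translation when amino acids run short, the endoplasmic reticulum is overloaded or eIF2 is phosphorylated for another reason, and its factor ATF4 switches on genes that make, import and charge amino acids onto tRNA. Growth factors induce AP-1 and EGR factors within minutes to hours, and the coactivators YAP and MRTF, with their DNA-binding partners TEAD and SRF, read tension in the actin cytoskeleton.

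The AS1949490 libraries were deeper than their controls. Every library's CPM values moved in steps of about 0.05 CPM, the step of a total scaled to about 20.01 M, so depth was estimated from how full the steps were. It came to 26.34 and 26.17 M reads with AS1949490, against 18.37 and 20.77 M reads with DMSO, with inferred scaling factors of 0.7594 and 0.7643 with AS1949490 and of 1.0887 and 0.9628 with DMSO. On the first principal component, with 89.15% of the variance, the groups lay apart, the AS1949490 libraries being at -27.37 and -25.22 and the DMSO libraries at 31.22 and 21.37. Replicates differed by more than sampling noise (chi-square per degree of freedom 3.45 between the AS1949490 libraries and 8.83 between the DMSO libraries). The difference between the DMSO libraries followed transcript length and GC content. From the shortest to the longest of 8 bins of transcript length, the median log2 ratio of AS1949490 to DMSO ran from -0.17 to 0.35, and that of DMSO replicate 2 to DMSO replicate 1 from -0.16 to 0.19. For AS1949490 replicate 2 over replicate 1 it ran from 0.04 to -0.08. From the lowest to the highest of 8 bins of GC content, the median log2 ratio of AS1949490 to DMSO ran from 0.32 to -0.11. That of DMSO replicate 2 to DMSO replicate 1 ran from 0.21 to -0.06. For AS1949490 replicate 2 over replicate 1 it was -0.03 in the lowest and -0.06 in the highest bin. To gauge how far this trend enters the results, a second fit was made with each library's trend on transcript length and GC content subtracted. It is called the centred fit here and was added after the data were seen. Length was that of the longest annotated transcript of a gene. After centring, the median log2 ratio of AS1949490 to DMSO was still -0.10 in the shortest bin of transcript length. Values of the centred fit are given beside many of the groups.

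**Figure D1:**
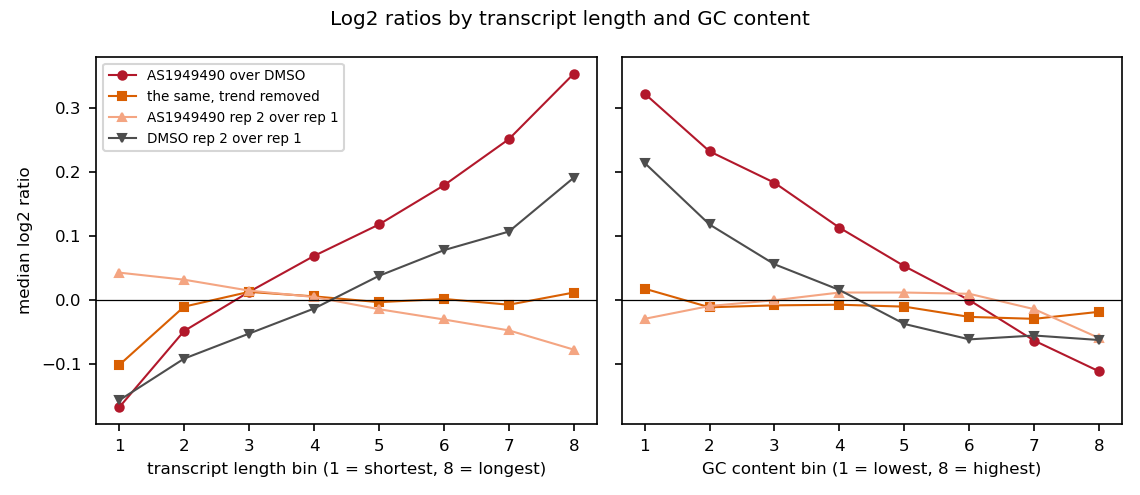
Median log2 ratio (y axis) of genes in 8 bins of transcript length (left) and of GC content (right) for AS1949490 over DMSO, for the same after each library's trend was removed, and for the replicates of each group over each other. The AS1949490 to DMSO ratio ran from -0.17 in the shortest to 0.35 in the longest transcripts, and the DMSO replicates differed along the same axis, from -0.16 to 0.19. With the trend removed, the AS1949490 to DMSO ratio was still -0.10 in the shortest transcripts.

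Markers were those of an epithelial line, with low levels of several keratins of stratified squamous epithelium. TP63 and KRT17, which mark basal squamous cells, were at 104.5 and 92.79 CPM (TP63) and 103.9 and 98.73 CPM (KRT17) in the AS1949490 libraries, against 66.05 and 95.5 CPM (TP63) and 222.3 and 196.4 CPM (KRT17) in the DMSO libraries. KRT5 and KRT14, the basal keratin pair, were low. KRT5 had 5.296 and 3.947 CPM with AS1949490, against 6.894 and 7.146 CPM with DMSO, and KRT14 had 0.749 and 0.5 CPM, against 1.149 and 1.099 CPM. The keratins of simple epithelium were abundant, with KRT8 at 835.2 and 848.9 CPM with AS1949490, against 1210 and 1130 CPM with DMSO. The intestinal factors CDX1 and CDX2 were at 0 in all 4 libraries. Of 8 endothelial markers none passed the filter on low values, and of 12 immune markers only CD68 did, a gene that shares 85.8% of its exon bases with another gene and is uncertain. The summed level of immune markers was 20.79 and 23.03 CPM with AS1949490, against 13.04 and 12.84 CPM with DMSO, and CD68 alone was at 19.39 and 21.73 CPM, against 11.74 and 11.59 CPM. Of the squamous markers 5 of 12 tested rose and 4 fell, of the columnar markers 3 of 7 fell (KRT8, KRT18 and GATA6), and of the fibroblast markers LUM rose and COL1A1 fell. The neuronal marker MAP2, which binds microtubules, rose to 98.63 and 96.68 CPM with AS1949490, against 35.22 and 37.58 CPM with DMSO, while TUBB3 was not called. The part of other cell types in the results was not tested.

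AS1949490 changed many genes by modest amounts. By limma, 7883 of the 17025 genes tested (46.3%) had an adjusted p under 0.05, of which 4894 (28.7%) rose and 2989 (17.6%) fell. At least a 2-fold change was seen in 352 genes that rose (2.07%) and 150 that fell (0.881%). Both AS1949490 libraries lay above both DMSO libraries for 45% of the genes tested and below them for 31.4%. The balance of rises and falls depended on the scaling: 62.1% of called genes rose on the deposited CPM, 50.5% with TMM scaling (4004 rose, 23.5% of the genes tested, and 3922 fell, 23%), 50.4% with median-of-ratios scaling (3991 and 3933), 50.4% with edgeR (4061, 23.9%, and 4001, 23.5%) and 51% in the centred fit (4252, 25.1%, and 4089, 24.1%). The median log2 fold over all genes tested was 0.08 on the deposited CPM and 0.01 with TMM or median-of-ratios scaling. The calls rest on 2 libraries a group: without AS1949490 replicate 1 or 2, limma called none (5142 and 5461 genes had an unadjusted p under 0.05), while edgeR called 4892 and 5399.

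**Figure D2:**
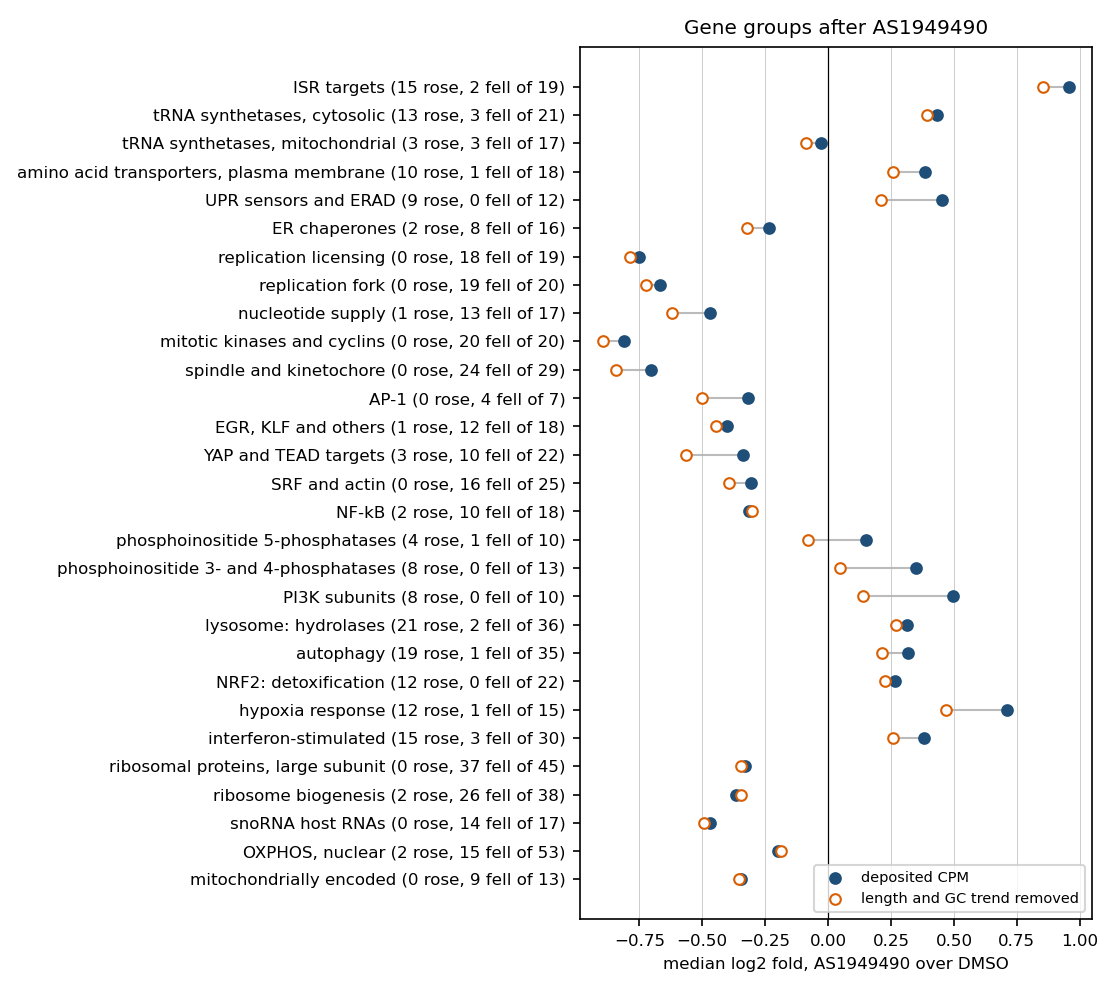
Median log2 fold of AS1949490 over DMSO (x axis) for groups of genes (y axis), as filled points for the deposited CPM and as open points after the trend on transcript length and GC content was removed, with the number of tested members that rose or fell on the deposited CPM. Integrated stress response targets had the highest median (0.96 and 0.85) and mitotic kinases and cyclins the lowest (-0.81 and -0.89).

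INPPL1, which encodes the target of the inhibitor, rose. The gene (ENSG00000165458, GRCh38 chromosome 11, 72223701 to 72239105, plus strand) was at 204.7 and 192.2 CPM with AS1949490, against 141.3 and 130.0 CPM with DMSO. Both treated libraries lay above both controls, as they did for 45% of all genes tested. INPPL1 differed by 0.55 ± 0.08 on the log2 scale (SE, limma adjusted p = 0.00202). Here and in what follows folds are differences of log2(CPM + 1), which understates the change of low genes. Rose or fell means a limma adjusted p under 0.05 over all genes tested. Counts of a group stand beside the shares over all genes tested, of which 28.7% rose and 17.6% fell (25.1% and 24.1% in the centred fit). The inhibitor acts on the protein, so this level does not check the label. The paralog INPP5D, which encodes SHIP1 of blood cells, was at 0.15 CPM or less in all 4 libraries.

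The 12 largest rises were led by ALDH1L2, EPGN and FAM129A. ALDH1L2, a mitochondrial enzyme that oxidises a formyl folate, was at 60.16 and 53.56 CPM with AS1949490, against 5.146 and 5.947 CPM with DMSO (log2 fold 3.14 ± 0.11, limma adjusted p = 0.00013). EPGN, the EGF receptor ligand epigen, had 22.18 and 22.29 CPM with AS1949490, against 2.348 and 2.749 CPM with DMSO (2.71 ± 0.11). FAM129A, known as Niban and induced by endoplasmic reticulum stress, had 63.35 and 64.11 CPM, against 8.893 and 10.64 CPM (2.59 ± 0.11). In all 3 the groups were far apart and the AS1949490 libraries close together. LCN2, a lipocalin that binds bacterial siderophores, had 49.12 and 50.22 CPM with AS1949490, against 11.34 and 7.146 CPM with DMSO (2.34 ± 0.18). The membrane genes TLCD2 (2.12 ± 0.14) and TMC4 (1.98 ± 0.10), the giant scaffold gene AHNAK2 (1.99 ± 0.11), the peptide hormone gene ADM2 (1.88 ± 0.09), KIAA0319 (1.86 ± 0.10) and the histone gene HIST1H2AC (1.92 ± 0.10) followed. HIST1H2AC belongs to a family of near copies and is uncertain. ASNS, asparagine synthetase, and the overlapping noncoding AC079781.5 complete the 12. They share 44.6% of the exon bases of ASNS and had near-equal values, so their reads cannot be told apart: ASNS was at 391.1 and 403.2 CPM with AS1949490, against 113.1 and 98.85 CPM with DMSO (1.90 ± 0.08).

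The largest falls were led by FOSB, CTGF and ANKRD1. FOSB, an AP-1 subunit, was at 4.297 and 3.198 CPM with AS1949490, against 33.57 and 50.62 CPM with DMSO (log2 fold -3.16 ± 0.20, limma adjusted p = 0.00025). CTGF, a matricellular protein gene and a classical YAP target, had 27.93 and 25.78 CPM with AS1949490, against 136.4 and 215.1 CPM with DMSO (-2.63 ± 0.19). The DMSO libraries differed from each other for both genes, but neither came near the treated libraries. ANKRD1, another YAP target, had 10.44 and 8.144 CPM with AS1949490, against 54.46 and 64.07 CPM with DMSO (-2.55 ± 0.13). FST, the activin-binding protein follistatin, had 6.795 and 7.295 CPM, against 41.02 and 47.52 CPM (-2.49 ± 0.11), and INHBA, the subunit of activin A, had 19.14 and 16.19 CPM, against 52.66 and 84.01 CPM (-1.86 ± 0.20). An activin gene and the gene of its antagonist thus both fell. The matricellular gene CYR61 (-1.81 ± 0.12), NAB2, a corepressor of EGR factors (-1.77 ± 0.09), SPOCD1 (-1.59 ± 0.10) and the cytokine LIF (-1.56 ± 0.09) also fell. DIO2, the deiodinase that activates thyroid hormone, was the most abundant of the genes named here, at 199.9 and 196.3 CPM with AS1949490, against 705.0 and 871.0 CPM with DMSO (-1.98 ± 0.10). Its antisense gene DIO2-AS1 fell with it (-1.65 ± 0.18), and without strand their reads cannot be told apart where they overlap.

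**Figure D3:**
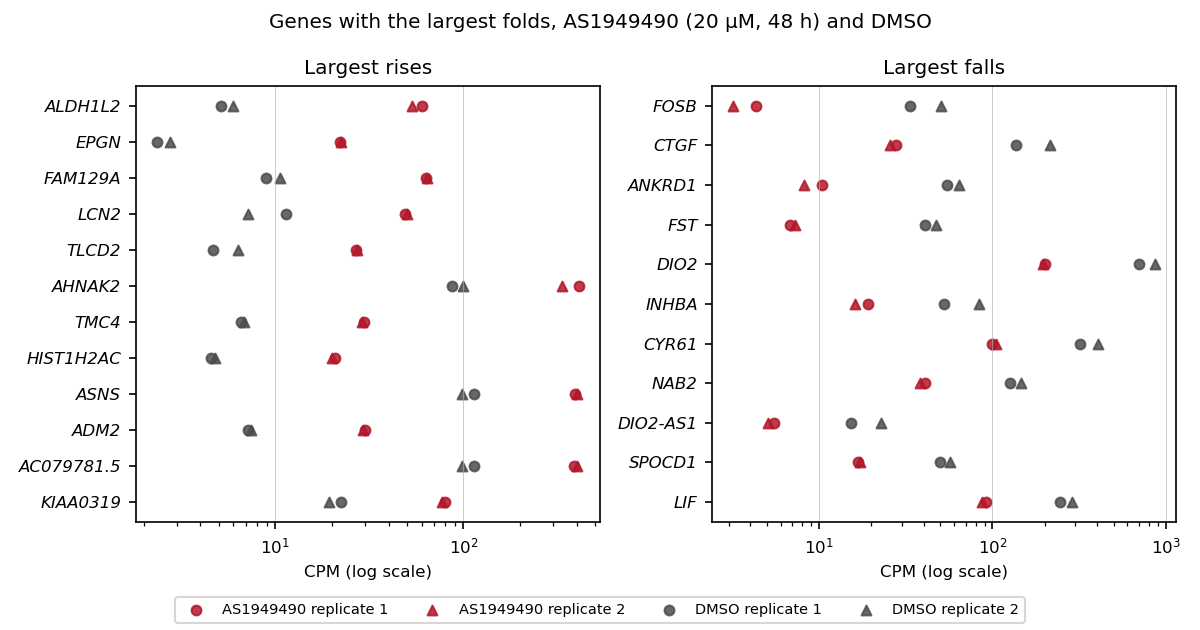
CPM (x axis, log scale) in each of the 4 libraries for the 12 genes with the largest rise (left) and 11 of those with the largest fall (right) among called genes with a mean of at least 10 CPM. Red symbols are AS1949490 and grey symbols DMSO. Groups that do not overlap were a condition of the choice.

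Targets of the integrated stress response rose, while the transcripts of most of its factors did not change by the test. Of 19 tested targets, 15 rose and 2 fell (median log2 fold 0.96), and the centred fit gave the same counts (median 0.85). DDIT4, an inhibitor of mTORC1, was at 92.98 and 85.64 CPM with AS1949490, against 26.43 and 25.49 CPM with DMSO (1.74 ± 0.08), but 41.2% of its exon bases lie in an antisense gene and it is uncertain. ADM2, VLDLR, a lipoprotein receptor (1.67 ± 0.11), the stress cytokine GDF15 (1.39 ± 0.10) and the pseudokinase TRIB3, an antagonist of ATF4 (1.39 ± 0.10), rose too. CHAC1, which breaks down glutathione, had 34.98 and 36.02 CPM with AS1949490, against 14.19 and 13.89 CPM with DMSO (1.28 ± 0.09). The 2 targets that fell were PPP1R15A, the stress-induced subunit that brings a phosphatase to eIF2, at 185.2 and 198.2 CPM with AS1949490, against 278.6 and 260.6 CPM with DMSO (-0.49), and C6orf48 (-0.26), which shares 29.1% of its exon bases with another gene and is uncertain. PPP1R15B, the constitutive subunit of the same phosphatase, rose (0.74). Among the factors, ATF4 itself was at 338.8 and 361.6 CPM with AS1949490, against 366.4 and 322.0 CPM with DMSO, so the groups overlapped (0.03, limma adjusted p = 0.811). DDIT3, which encodes CHOP, overlapped as well, at 62.16 and 68.85 CPM with AS1949490, against 68.3 and 53.62 CPM with DMSO (0.11, limma adjusted p = 0.482), and 39.6% of its exon bases lie in another gene. ATF3 fell (51.46 and 57.76 CPM with AS1949490, against 83.83 and 104.8 CPM with DMSO, -0.77), CEBPG rose (0.69) and JDP2 rose (0.95). ATF4 is controlled at translation, so its transcript is not a measure of its activity. Of the 10 eIF2 kinase and eIF2/eIF2B genes, EIF2AK2 alone was called, and that rise was not called in the centred fit (0.45 on the deposited CPM, 0.01 centred), in which 2 other members fell.

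The letters TGATGNAA, the composite element that C/EBP and ATF factors, ATF4 included, bind in amino acid genes, were searched on both strands of RefSeq promoters (GRCh38.p14, from 250 bases before to 50 bases after each gene start). They occurred in 1270 of 35116 promoters (3.62%), in 4 of 17 promoters of integrated stress response targets, in 6 of 16 of cytosolic aminoacyl-tRNA synthetases and in 1 of 14 of mitochondrial ones. The 6 cytosolic synthetases with a match (AARS, CARS, IARS, MARS, NARS and TARS) all rose on the deposited CPM, TARS not in the centred fit. Stretches upstream of the start are shown for members that rose, so that the match can be read in its place, with the match in capitals. They are ASNS (chr7:97872439-97872506, minus strand, 68 bases upstream), CHAC1 (chr15:40953232-40953299, plus strand, 209 bases upstream), PPP1R15B (chr1:204412007-204412067, minus strand, 227 bases upstream), AARS (chr16:70289656-70289723, minus strand, 187 bases upstream) and IARS (chr9:92293698-92293740, minus strand, 13 bases upstream). In CHAC1, AARS and IARS the match lies on the other strand and reads TTGCATCA. A match is a description of the sequence and not evidence of binding.
ASNS: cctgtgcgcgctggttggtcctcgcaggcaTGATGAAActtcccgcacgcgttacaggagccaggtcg
CHAC1: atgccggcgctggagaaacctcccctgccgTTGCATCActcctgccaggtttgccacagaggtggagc
PPP1R15B: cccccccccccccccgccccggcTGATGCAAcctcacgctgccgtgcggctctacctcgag
AARS: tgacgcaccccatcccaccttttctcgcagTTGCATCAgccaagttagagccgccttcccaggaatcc
IARS: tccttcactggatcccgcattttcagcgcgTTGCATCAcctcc

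Genes that load amino acids onto cytosolic tRNAs rose, and their mitochondrial counterparts had no shared direction. Of 21 cytosolic aminoacyl-tRNA synthetases 13 rose and 3 fell (median log2 fold 0.43; 11 and 4, median 0.39, in the centred fit). Of 17 mitochondrial ones 3 rose and 3 fell (median -0.03; 2 and 5, median -0.09, centred). EPRS, which charges glutamate and proline, was at 343.1 and 334.1 CPM with AS1949490, against 207.0 and 214.1 CPM with DMSO (0.68 ± 0.07). SARS for serine (0.68 ± 0.08), CARS for cysteine (0.67 ± 0.08), WARS for tryptophan (0.65 ± 0.07), IARS for isoleucine (0.65 ± 0.08) and AARS for alanine (0.65 ± 0.07) rose by nearly the same amount. VARS for valine fell, at 193.4 and 188.6 CPM with AS1949490, against 265.2 and 251.3 CPM with DMSO (-0.43), as did FARSB (-0.30) and QARS (-0.23). For alanine and for serine the pairs split: cytosolic AARS and SARS rose, while mitochondrial AARS2 (-0.24) and SARS2 (-0.54) fell, although SARS2 shares 57.0% of its exon bases with another gene and is uncertain.

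**Figure D4:**
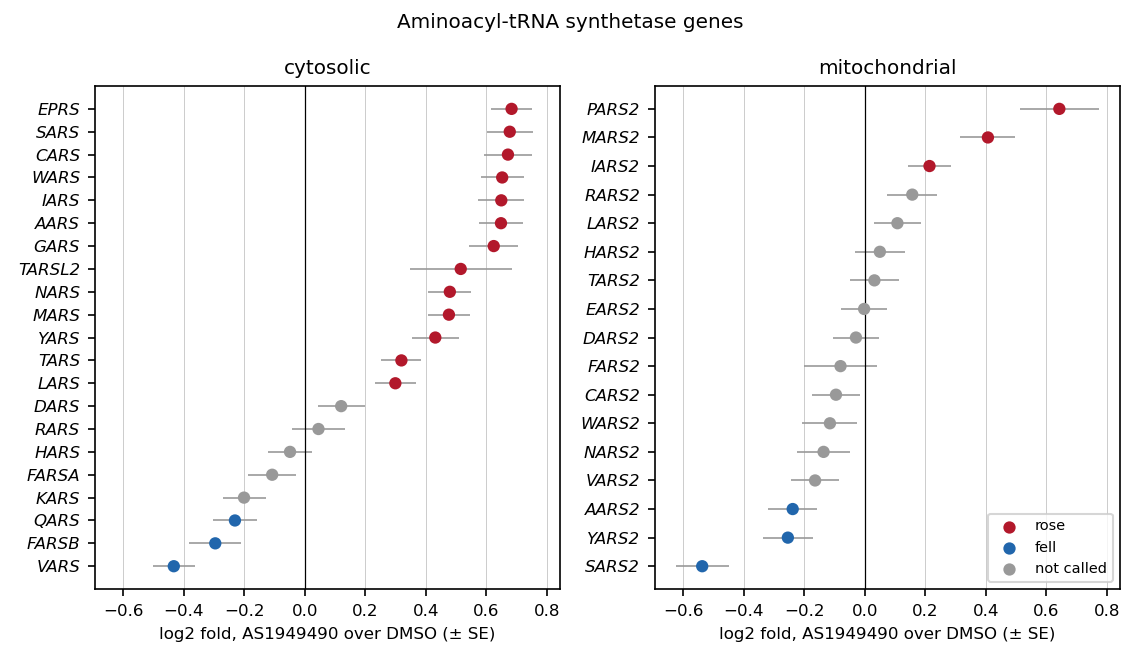
Log2 fold of AS1949490 over DMSO with its SE (x axis) for 21 cytosolic (left) and 17 mitochondrial (right) aminoacyl-tRNA synthetase genes, coloured by call. Cytosolic genes run from -0.43 to 0.68 with 13 called higher, and the mitochondrial genes spread around 0.

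Amino acid import and serine synthesis rose in part. Of 18 tested amino acid transporters of the plasma membrane 10 rose and 1 fell (median log2 fold 0.39; 11 and 4, median 0.26, centred). SLC6A9, a glycine transporter, was at 48.17 and 43.47 CPM with AS1949490, against 15.04 and 13.44 CPM with DMSO (1.62 ± 0.10). SLC1A4, which carries serine and alanine, had 26.48 and 27.13 CPM, against 9.293 and 7.596 CPM (1.56 ± 0.12). SLC7A11, the cystine importer, was at 758.8 and 676.7 CPM with AS1949490, against 268.4 and 394.4 CPM with DMSO (1.14 ± 0.16, 0.67 centred). The glutamine carrier SLC38A1 (0.90 ± 0.11) and the lysosomal SLC38A9 (0.66 ± 0.10) and SLC38A7 (0.66 ± 0.08) rose. In serine synthesis PSAT1 (303.5 and 301.1 CPM with AS1949490, against 102.9 and 108.6 CPM with DMSO, 1.51 ± 0.07), PHGDH (0.45) and PSPH (0.63 ± 0.11) all rose. Of 19 serine, glycine and one-carbon genes tested 8 rose and 3 fell, with folds from -0.97 to 3.14. Of the 8 folate genes among them 3 rose and 2 fell. The mitochondrial ALDH1L2, SHMT2 (0.40) and MTHFD2 (0.68 ± 0.07, uncertain because 33.2% of its exon bases lie in another gene) rose, while the mitochondrial MTHFD1L was not called (0.10). The cytosolic SHMT1 (-0.51) and MTHFD1 (-0.42) fell. These names were drawn from the whole list, and the gene with its lowest fold (-0.97) is not among them. No split by compartment across the list is read from them.

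Secretory pathway genes split by role. Of 16 chaperones of the endoplasmic reticulum 2 rose and 8 fell (median log2 fold -0.24; 0 and 10, median -0.32, centred), while of 12 sensors and degradation factors 9 rose and none fell (median 0.45; 6 and 2, median 0.21, centred). PDIA4, a disulfide isomerase, was at 238.1 and 237.4 CPM with AS1949490, against 356.9 and 360.3 CPM with DMSO (-0.59 ± 0.07), and CRELD2 fell by a similar amount (-0.66 ± 0.10). HSPA5, the chaperone BiP, was called only in the centred fit (-0.17 on the deposited CPM, -0.28 centred). EDEM1, which sends misfolded glycoproteins to degradation, had 228.6 and 225.3 CPM with AS1949490, against 115.5 and 129.9 CPM with DMSO (0.89 ± 0.08), and SEL1L (0.89 ± 0.13), XBP1 (0.61 ± 0.07) and ERN1 (0.59 ± 0.14) rose.

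Genes of DNA replication and mitosis fell nearly throughout. Of 19 replication licensing and helicase genes 18 fell and none rose (median log2 fold -0.75), of 20 fork and polymerase genes 19 fell and none rose (-0.67), and of 17 genes of nucleotide supply 13 fell and 1 rose (-0.47). All 20 mitotic kinases and cyclins fell (-0.81), as did 24 of 29 spindle and kinetochore genes (-0.70), against 17.6% of all genes tested. In the centred fit the counts that fell were 19, 20, 14, 20 and 28. MCM5, of the replicative helicase, was at 72.3 and 65.5 CPM with AS1949490, against 152.1 and 151.5 CPM with DMSO (-1.13 ± 0.08). TK1, which makes thymidine monophosphate by salvage, had 70.5 and 72.55 CPM with AS1949490, against 169.1 and 158.5 CPM with DMSO (-1.18 ± 0.08), and AURKB, the kinase of the chromosomal passenger complex, had 41.62 and 35.38 CPM, against 93.77 and 87.8 CPM (-1.22 ± 0.10). The groups did not overlap in any of them, and 31.4% of all genes tested had both AS1949490 libraries below both DMSO libraries. CDC20, the activator of the anaphase-promoting complex (-1.13 ± 0.07), KIF20A (-1.14 ± 0.08), PLK1 (-1.08 ± 0.07), UBE2C (-1.07 ± 0.08), GINS2 (-1.08 ± 0.09) and MCM2 (-1.06 ± 0.07) fell by like amounts. TYMS (-1.15 ± 0.07) and PKMYT1 (-1.24 ± 0.09) share 46.6% and 31.6% of their exon bases with other genes and are uncertain. The exception was RRM2B, the reductase subunit that p53 induces outside S phase, at 59.11 and 55.41 CPM with AS1949490, against 22.88 and 32.28 CPM with DMSO (1.05 ± 0.15). In bulk RNA, fewer cycling cells and less RNA per cycling cell cannot be told apart.

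At the entry to the cycle, the E2F factors E2F1 (25.53 and 25.33 CPM with AS1949490, against 53.76 and 55.37 CPM with DMSO, -1.07 ± 0.08) and E2F2 (-1.32 ± 0.14) fell, and RBL2, the p130 pocket protein that represses their targets, rose (0.64 ± 0.12). CCND1, cyclin D1, was not called (-0.04). Among CDK inhibitors CDKN1A, which encodes p21, rose (0.58), CDKN2A (-0.80 ± 0.09), CDKN2C (-0.71 ± 0.13) and CDKN3 (-0.89 ± 0.10) fell, and CDKN1B (0.20), CDKN2B (0.37) and CDKN2D (-0.13) were not called.

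Early response factors and targets of YAP and SRF were lower with AS1949490. Of 7 AP-1 genes 4 fell and none rose, and of 18 EGR, KLF and other early factors 12 fell and 1 rose (medians -0.32 and -0.40). FOSL1 was at 116.1 and 121.6 CPM with AS1949490, against 254.1 and 275.6 CPM with DMSO (-1.15 ± 0.08), and JUNB had 94.08 and 81.24 CPM, against 186.5 and 221.2 CPM (-1.21 ± 0.11). FOS and JUN were not called (-0.09 and -0.23). EGR1 and EGR3 moved in opposite directions: EGR1 rose to 125.0 and 123.9 CPM with AS1949490, against 76.54 and 98.85 CPM with DMSO (0.51), and EGR3 fell to 1.699 and 1.299 CPM, against 5.745 and 14.04 CPM (-2.02 ± 0.33). IER3 (-0.89 ± 0.07) shares 26.5% of its exon bases with an antisense gene and is uncertain. KLF10 fell (180.1 and 171.7 CPM with AS1949490, against 251.1 and 410.0 CPM with DMSO, -0.86 ± 0.20), with the DMSO libraries far apart. A list of 21 genes that respond to ERK was mixed, with 4 higher and 8 lower. Over all genes tested 28.7% rose and 17.6% fell. The list was made up mostly of DUSP, Sprouty and SPRED inhibitors but also of the factors ETV4 and ETV5 and the receptor EPHA2. DUSP5 (-0.68 ± 0.08) and SPRY4 (-0.65 ± 0.09) fell, and SPRED3 (1.40 ± 0.11) and DUSP16 (0.68 ± 0.08) rose. DUSP6, uncertain with 40.5% of its exon bases in another gene, was not called (-0.02).

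YAP targets fell while YAP1 itself rose. Of 22 targets of YAP and TEAD 10 fell and 3 rose (median log2 fold -0.34; 13 and 2, median -0.56, centred). Beside CTGF and ANKRD1, CYR61 was at 99.78 and 104.5 CPM with AS1949490, against 319.3 and 409.4 CPM with DMSO, and F3, tissue factor, had 119.8 and 117.9 CPM, against 264.2 and 321.1 CPM (-1.29 ± 0.10). GADD45B (-1.55 ± 0.08) and TGFB2 (-1.53 ± 0.19, uncertain, with 26.6% of its exon bases in another gene) fell as well. NT5E (0.71), MYOF (0.31, not called in the centred fit) and IGFBP3 (0.46) rose, and AJUBA (-0.10) and CRIM1 (0.11) were not called. YAP1 was at 712.4 and 677.5 CPM with AS1949490, against 383.2 and 526.7 CPM with DMSO (0.63, 0.38 centred), and TEAD4 fell (-0.80). The letters GGAATG, the core of the site that TEAD binds, were found on either strand in 14% of RefSeq promoters and in 6 of 15 promoters of the targets (CTGF, ANKRD1, PTPN14, TGFB2, NUAK2 and FOXF2). Of those 6, PTPN14 (0.31) and FOXF2 (-0.30) were not called. The stretches of CTGF (chr6:131951432-131951571, minus strand) and ANKRD1 (chr10:90921180-90921337, minus strand) are shown because these genes fell most and hold 3 and 2 matches upstream of the start, in capitals.
CTGF: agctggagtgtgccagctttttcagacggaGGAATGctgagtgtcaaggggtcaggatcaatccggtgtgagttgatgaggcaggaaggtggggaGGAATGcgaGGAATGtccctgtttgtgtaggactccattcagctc
ANKRD1: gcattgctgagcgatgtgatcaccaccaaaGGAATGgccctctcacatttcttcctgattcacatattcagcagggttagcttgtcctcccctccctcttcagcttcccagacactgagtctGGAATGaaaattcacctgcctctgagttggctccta

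Cytoskeletal genes fell by smaller amounts. Of 25 genes of actin, myosin and SRF 16 fell and none rose (median log2 fold -0.31; 18 and none, median -0.40, centred). TAGLN, transgelin, was at 4.747 and 3.598 CPM with AS1949490, against 9.592 and 12.19 CPM with DMSO (-1.20 ± 0.16). CNN2, calponin 2 (-0.85 ± 0.08), FHL2 (-0.82 ± 0.07), the focal adhesion protein gene ZYX (-0.76 ± 0.07), ACTN1 (-0.61 ± 0.07) and TPM4 (-0.60 ± 0.07) fell, and so did the cytoplasmic actins ACTB (-0.47) and ACTG1 (-0.49). SRF itself fell (-0.43). In the NF-kB group 10 of 18 genes fell and 2 rose (median -0.31). RELB was at 17.99 and 19.14 CPM with AS1949490, against 38.52 and 36.98 CPM with DMSO (-0.99 ± 0.09), and BCL3 (-1.04 ± 0.15), the feedback inhibitors TNFAIP3 (-0.85 ± 0.10) and NFKBIE (-0.81 ± 0.11), NFKB2 (-0.74 ± 0.08) and TRAF2 (-0.62 ± 0.09) fell. Outside that group the chemokine gene CXCL8 fell too, at 5.796 and 7.795 CPM with AS1949490, against 12.09 and 14.94 CPM with DMSO (-0.90 ± 0.16).

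**Figure D5:**
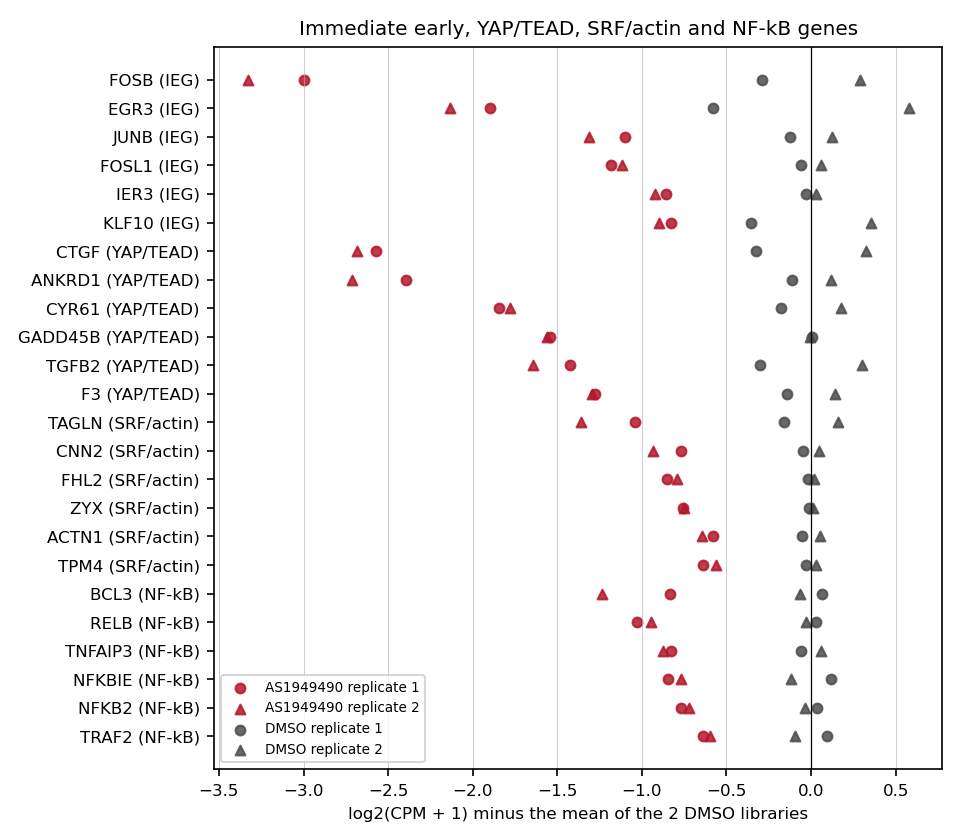
Log2(CPM + 1) of each library minus the mean of the 2 DMSO libraries (x axis) for the called members with the largest folds of 4 groups (y axis): immediate early genes (IEG), YAP/TEAD, SRF/actin and NF-kB. Red symbols are AS1949490 and grey symbols DMSO. In every gene shown both AS1949490 libraries lie below both DMSO libraries, but choosing called genes with large folds favours groups that do not overlap.

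Ligand genes of the ERBB and TGF-beta families changed in both directions. Among EGF family ligands 5 of 9 rose and 1 fell: BTC (7.794 and 8.344 CPM with AS1949490, against 3.048 and 3.798 CPM with DMSO, 1.04 ± 0.13), EREG (0.72 ± 0.18), TGFA (0.55 ± 0.11), EGF (1.11) and EPGN rose, HBEGF fell (-0.39) and AREG was not called (-0.07). On the receptor list 3 of 6 tested genes rose and 1 fell (1 and 1 centred), with folds from -1.58 to 0.73. The gene with the lowest fold is not named here. ERBB3, a partner without strong kinase activity that FOXO factors induce, rose to 74.5 and 77.15 CPM with AS1949490, against 46.46 and 44.28 CPM with DMSO (0.73 ± 0.08). EGFR was higher on the deposited CPM (0.39 ± 0.12) and not called in the centred fit (0.09) or with TMM scaling. Of 19 TGF-beta family ligands, receptors and SMADs 7 rose and 5 fell, where 28.7% of all genes tested rose and 17.6% fell. The falls were led by FST, INHBA and TGFB2. Of 20 targets 10 fell and 1 rose. THBS1, thrombospondin 1, was at 1734 and 1695 CPM with AS1949490, against 3175 and 3743 CPM with DMSO (-1.01 ± 0.09), and the matrix gene LTBP2 (-1.05 ± 0.15) and the clock repressor BHLHE40 (-0.95 ± 0.09) fell.

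Genes that make and break phosphoinositides rose on the deposited CPM, but fewer did so once the trends on transcript length and GC content were removed together. Of 13 tested 3- and 4-phosphatases 8 rose and none fell (median log2 fold 0.35), against 5 and 3 in the centred fit (median 0.05). Of 10 PI3K subunits 8 rose and none fell (median 0.50), against 4 and none centred (median 0.14), and of 10 5-phosphatases 4 rose and 1 fell (median 0.15), against 3 and 4 centred (median -0.08). The genes that held in both fits included SYNJ1, a 5-phosphatase of endocytosis (22.73 and 23.33 CPM with AS1949490, against 8.193 and 13.44 CPM with DMSO, 1.06 ± 0.19, 0.72 centred), INPP4A, which acts on the product of SHIP2 (74.1 and 74.45 CPM, against 40.22 and 42.93 CPM, 0.82 ± 0.08, 0.52 centred), and the class II kinase PIK3C2B (50.36 and 48.82 CPM, against 21.88 and 26.59 CPM, 1.01 ± 0.11, 0.81 centred). MTMR6 (0.72 ± 0.16), MTM1 (0.64 ± 0.11) and TMEM55A (0.64 ± 0.12) were further members. PIK3CA, the catalytic subunit most often mutated in cancer, rose by 0.59 on the deposited CPM, was not called in the centred fit (0.13) and is uncertain, with 35.8% of its exon bases in another gene.

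Downstream of PI3K, targets of the FOXO factors that AKT restrains went both ways. Of 17 FOXO genes and targets 6 rose and 5 fell, in both fits. On the deposited CPM 28.7% of all genes tested rose and 17.6% fell. FOXO1 (20.49 and 18.39 CPM with AS1949490, against 9.542 and 11.74 CPM with DMSO, 0.82 ± 0.12) and SESN3, a sestrin that restrains mTORC1 (1.29 ± 0.14), rose, and IRS2 (-0.56), IGF1R (-0.60) and FBXO32 (-0.63) fell. SGK1, a kinase relative of AKT whose transcript responds quickly to growth factors, fell to 9.893 and 10.24 CPM with AS1949490, against 25.83 and 29.09 CPM with DMSO (-1.36 ± 0.10). AKT1 (-0.18) and AKT2 (-0.12) were not called on the deposited CPM and fell in the centred fit (-0.33 and -0.20). RICTOR, of mTORC2, rose (57.91 and 49.32 CPM with AS1949490, against 22.48 and 35.53 CPM with DMSO, 0.89 ± 0.19, 0.44 centred).

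Lysosomal and autophagy genes rose. Of 36 hydrolase and membrane genes of the lysosome 21 rose and 2 fell (median log2 fold 0.31), of 25 genes of the V-ATPase and of MiT/TFE signalling 15 rose and none fell (0.32), and of 35 autophagy genes 19 rose and 1 fell (0.32), against 28.7% of all genes tested. In the centred fit 21 rose and 5 fell, 17 rose and none fell, and 19 rose and 4 fell. GPNMB, a lysosomal glycoprotein gene, was at 16.29 and 16.49 CPM with AS1949490, against 3.897 and 4.248 CPM with DMSO (1.78 ± 0.11). GAA, the acid glucosidase (1.21 ± 0.09), TPP1, a peptidase (1.05 ± 0.08), and ATP6V1A, the catalytic subunit of the proton pump (1.13 ± 0.12), rose, as did FNIP2 (1.11 ± 0.12) and FNIP1 (0.85 ± 0.20), which act on lysosomal mTORC1 signalling. Of the MiT/TFE factors that drive these genes, TFEB (0.55) and MITF (0.58) rose and TFE3 was not called (0.06). Among cargo receptors of autophagy SQSTM1 was at 1656 and 1730 CPM with AS1949490, against 1106 and 973.8 CPM with DMSO (0.71 ± 0.08), and CALCOCO2 (0.99 ± 0.08), CALCOCO1 (0.89 ± 0.10) and NBR1 (0.71 ± 0.08) rose. WIPI1 (1.02 ± 0.14) shares 28.1% of its exon bases with another gene and is uncertain.

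Oxidant defence, lipid and hypoxia genes rose in part. Of 18 NRF2 targets of glutathione and NADPH supply 7 rose and 1 fell (12 and 1 centred), and of 22 of detoxification 12 rose and none fell. IDH1, which makes NADPH in the cytosol, was at 193.9 and 201.0 CPM with AS1949490, against 72.89 and 79.26 CPM with DMSO (1.37 ± 0.08), AKR1C1 had 107.1 and 112.9 CPM, against 49.46 and 39.53 CPM, and the exporter ABCC3 (1.08 ± 0.08) and GCLC (0.72 ± 0.07) rose. AKR1C1 has close paralogs that could share its reads. Of 16 fatty acid synthesis genes 9 rose and none fell (8 and 3 centred), among them ACSS2, which activates acetate (34.28 and 35.23 CPM with AS1949490, against 15.39 and 14.79 CPM with DMSO, 1.15 ± 0.09), and the desaturase SCD (1.13 ± 0.12). Of 20 genes of fatty acid oxidation 10 rose and 1 fell, with its regulator PPARA at 23.83 and 25.63 CPM, against 7.744 and 8.396 CPM. In cholesterol metabolism 4 of 13 regulator and uptake genes rose and 1 fell, where 28.7% of all genes tested rose and 17.6% fell. The sterol exporters ABCA1 (1.41 ± 0.20) and ABCG1 (1.24 ± 0.13) and their regulator NR1H3 (0.69 ± 0.11) were among the rises. Of 20 synthesis enzymes 4 rose and 5 fell. Of 15 hypoxia response genes 12 rose and 1 fell (median log2 fold 0.71, 0.47 centred), led by NDRG1 (330.6 and 308.7 CPM with AS1949490, against 119.7 and 94.85 CPM with DMSO, 1.58 ± 0.11), EGLN3 (1.11 ± 0.12), CA12 (1.06 ± 0.13) and P4HA1 (1.06 ± 0.11), while BNIP3 fell (-0.51). Glycolysis genes, kept on the same list, were mixed, with 6 of 21 higher and 3 lower (median 0.06).

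Most genes of the cytosolic ribosome and of its assembly fell by small amounts. Of 77 cytosolic ribosomal protein genes 62 fell and none rose (median log2 fold -0.33; 73 centred), of 38 genes of ribosome biogenesis, MYC included, 26 fell and 2 rose (-0.37; 32 and 0 centred), and of 17 noncoding host genes of snoRNAs 14 fell and none rose (-0.47). RPS15 was at 147.1 and 145.2 CPM with AS1949490, against 254.3 and 216.5 CPM with DMSO (-0.68 ± 0.09). Relative to the mean of the DMSO libraries, the ribosomal protein genes had medians of -0.375 and -0.295 with AS1949490, and 0.118 and -0.118 with DMSO. The DMSO libraries thus differed from each other in this group too. Most ribosomal protein transcripts are short, and ribosomal protein genes have processed pseudogenes that could share reads. The centred fit used the longest annotated transcript of each gene, with a median of 1826 bases in this group, so it may not remove a length trend here. FBL, the rRNA methylase fibrillarin, had 107.0 and 115.5 CPM with AS1949490, against 193.8 and 178.2 CPM with DMSO (-0.74 ± 0.08), and MYC, which drives this programme, had 121.5 and 118.2 CPM, against 182.3 and 177.7 CPM (-0.58 ± 0.07). SNHG17 (-0.98 ± 0.09) and SNHG12 (-0.74 ± 0.10) were among the host genes. Of 13 mitochondrially encoded genes of the respiratory chain 9 fell and none rose (-0.35), with MT-CYB at 1049 and 1064 CPM with AS1949490, against 1601 and 1706 CPM with DMSO (-0.65 ± 0.07). Among 53 oxidative phosphorylation genes of the nucleus 15 fell and 2 rose (25 and none in the centred fit), where 17.6% of all genes tested fell (24.1% centred), and of 31 proteasome genes 8 fell (18 centred). PSMC3 (-0.49 ± 0.10) and UQCRH (-0.36 ± 0.10) are examples. Against the mean of the DMSO libraries, the nuclear oxidative phosphorylation genes had medians of -0.24 and -0.12 with AS1949490, and 0.11 and -0.11 with DMSO. Proteasome medians were -0.22 and -0.14 with AS1949490, and 0.10 and -0.10 with DMSO. In these 2 groups DMSO replicate 2 thus lay near AS1949490 replicate 2.

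Keratin genes fell and junction genes rose. Of 15 tested keratins 10 fell and 1 rose (median log2 fold -0.47). KRT17 and KRT8 fell (-1.04 ± 0.09 and -0.47 ± 0.07), as did KRT18, at 495.9 and 526.7 CPM with AS1949490, against 827.4 and 735.6 CPM with DMSO (-0.61 ± 0.08). KRT16 rose (17.19 and 19.19 CPM, against 12.64 and 11.84 CPM, 0.53 ± 0.10), but keratin genes of this type have close copies and are uncertain. Of 16 genes of desmosomes and adherens junctions 12 rose and none fell (median 0.40; 10 and 1, median 0.19, centred). DSG3, a desmosomal cadherin of squamous epithelium, was at 24.18 and 21.73 CPM with AS1949490, against 5.845 and 8.945 CPM with DMSO (1.54 ± 0.17), and DSC2 (1.23 ± 0.15) and NECTIN4 (1.11 ± 0.09) rose. Of 19 integrin and laminin genes 10 rose and 1 fell (median 0.30), against 7 and 2 centred (median 0.03). ITGAV, at 347.4 and 293.4 CPM with AS1949490, against 111.4 and 205.5 CPM with DMSO (1.07 ± 0.25, 0.68 centred), and ITGA5 (0.81 ± 0.08) rose in both fits. Squamous differentiation genes were mixed, with 16 of 52 tested higher and 10 lower, near the shares over all genes tested (28.7% and 17.6%). Among them 6 of 29 lineage factors rose and 6 fell, and 6 of 15 S100 and kallikrein genes rose and 3 fell (median log2 fold -0.16). The lineage factor NOTCH3 rose to 80.99 and 70.2 CPM with AS1949490, against 23.23 and 26.64 CPM with DMSO (1.56 ± 0.11), while the Notch target HES1 fell to 40.72 and 38.82 CPM, against 70.44 and 75.01 CPM. CSTA, an inhibitor in the cornified envelope (1.09 ± 0.14), S100P (1.14 ± 0.10) and S100A14 (0.90 ± 0.09) rose, KLK10, a kallikrein, fell (-1.23 ± 0.11), and OVOL1 fell but shares 27.1% of its exon bases with another gene and is uncertain. TP63 was not called.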

How the data were processed

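Per the labels' protocols, RNA was treated with DNase on the column and sequenced from Ovation Solo libraries. Per the submitters' processing notes, STAR 2.5.3a and HTSeq were used with hg38. The deposited values are CPM per gene, made by the authors and used as deposited. All values were whole steps within 0.05 of a step (100.0%), with the same step in each library. A scaling factor per library, inferred from how many genes fell on each step, gave the reads used for depth and for edgeR and DESeq2, and its true value is not given in the sources used here.

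A gene whose mean reached 1 CPM in either group was tested with limma 3.58.1 (R 4.3.3, trend) on log2(CPM + 1) in the 4 libraries, with Benjamini-Hochberg adjustment over 17025 genes and a threshold of 0.05. No single-gene permutation test was used, since 2 libraries against 2 give a two-sided exact p of 0.333 at best. The fitting was tested on simulated counts with a common dispersion and no trend on transcript length or GC content. That test therefore does not give the error rate of the calls made here. Gene coordinates and transcript length and GC content came from GENCODE 29 (58039 of 58302 genes matched), and promoters from RefSeq. A gene that shares at least 25% of its exon bases with another gene is called uncertain, since use of strand in counting is not given in the sources used here.

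Genes, lists and promoter motifs were chosen with earlier results of these data known. Named were the 12 largest folds in each direction among called genes with a mean of at least 10 CPM and groups that do not overlap, and for each list up to 6 called members with the largest folds and a mean of at least 5 CPM, plus members the list is named for. Other named genes were chosen after their values were seen. Alternatives were other pseudocounts, filters and scalings, all 10 libraries, edgeR 4.0.16 and DESeq2 1.42.0 on the recovered reads, a replicate block and leaving out each library. Results for some genes are not reported here.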

Additional observations from a re-analysis of the deposited data

How the results depend on the processing

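Other pseudocounts, TMM or median-of-ratios scaling and a fit of all 10 libraries kept the total of 7883 called genes within 1.5 times. None of the 290 genes named from lists and largest folds reversed under any of 20 alternatives. Those genes were chosen for their calls and folds in these same libraries, so a reversal was unlikely from the start. Several alternatives, such as the replicate blocks and the fit of all 10 libraries, leave the fold unchanged. Of the 290, 95 lost their call with no filter on low values and 16 in the centred fit. Testing all genes with no filter on low values left 2898 calls (1735 rose, 1163 fell). It also cut the groups with most members called in one direction to 8, against 34 of 76. DESeq2 called 3024 genes that rose. Without 1 library, limma called between 0 (without either AS1949490 library) and 8067 genes (without DMSO replicate 2). Rises ranged between 0 and 4999, falls between 0 and 3068, and groups with most members called between 0 and 33. All 7883 genes kept their direction without AS1949490 replicate 1 or 2, but they were called on these same libraries. A gene whose groups do not overlap cannot change direction when 1 library is left out, so this is no separate check. With edgeR, added after the data were seen, 4892 genes were called without AS1949490 replicate 1 (2550 rose, 21 groups) and 5399 without replicate 2 (2869 rose, 20 groups). Without DMSO replicate 1 it called 8469, and without DMSO replicate 2 it called 9826, of which 4892 fell. INPPL1 ranged between 0.486 and 0.605 with limma and 1 library left out, between 0.399 and 0.530 with edgeR and 1 library left out, and between 0.463 and 0.548 under the alternatives that left out none. Its limma call was lost without either AS1949490 library (0.501, adjusted p = 0.116, and 0.591, adjusted p = 0.102). The cause was not tested beyond the loss of samples. Of 76 group medians 11 changed sign in the centred fit and 8 with TMM scaling.

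A replicate block gave 4694 rises and 2693 falls. The numbers are those of the titles. The library names carry others (2 and 3 for AS1949490, 1 and 3 for DMSO), and no label says that either set pairs the libraries. With 2 pairs the deviations of same-numbered libraries had a correlation of -0.352. Crossed pairing, added after the data were seen, gave 5760 rises and 3689 falls. With steps of about 0.05 CPM, changes in genes of a few steps could not be resolved.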

Other observations

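Interferon-stimulated genes, which an interferon signal induces in most cell types, rose: of 30 tested members 15 rose and 3 fell (median log2 fold 0.38; 14 and 1, median 0.26, in the centred fit). IFI35 was at 19.49 and 21.23 CPM with AS1949490, against 6.545 and 7.296 CPM with DMSO (1.43 ± 0.11), and SAMD9L had 39.47 and 35.98 CPM, against 14.59 and 13.64 CPM (1.36 ± 0.09). The RNA sensor gene OAS1 (0.89 ± 0.14) and PARP14 (0.78 ± 0.10) rose, while the factor IRF1 fell to 32.48 and 31.08 CPM with AS1949490, against 57.4 and 50.97 CPM with DMSO (-0.75 ± 0.09). The groups of these genes did not overlap, which is common here. Over all genes tested, both AS1949490 libraries lay above both DMSO libraries for 45% and below them for 31.4%.

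Of 10 genes of the aryl hydrocarbon receptor, its partner and its targets 5 rose and none fell, where 28.7% of all genes tested rose. They were AHR, its partner ARNT and the targets CYP1B1, TIPARP and AHRR, of which AHRR was not called in the centred fit or with TMM scaling, and AHR shares 32.3% of its exon bases with another gene and is uncertain. CYP1B1, which oxidises aromatic compounds, was at 265.1 and 237.8 CPM with AS1949490, against 93.47 and 123.8 CPM with DMSO (1.22 ± 0.13). SLC40A1, the iron exporter ferroportin, had 6.545 and 8.144 CPM with AS1949490, against 1.549 and 1.499 CPM with DMSO (1.72 ± 0.14), within an iron group in which 8 of 12 rose and none fell (median log2 fold 0.41), against 7 in the centred fit (median 0.21), with 5 called in both. The metallothionein gene MT2A fell to 90.44 and 92.99 CPM, against 165.2 and 138.9 CPM (-0.72 ± 0.10), and the zinc exporter gene SLC30A1 rose (0.77 ± 0.18).

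Of 28 targets of p53, 11 rose and 5 fell, where 28.7% of all genes tested rose and 17.6% fell. ZMAT3 was at 43.32 and 41.62 CPM with AS1949490, against 16.14 and 22.54 CPM with DMSO (1.11 ± 0.15), and SESN2 (0.80 ± 0.08) rose, while GADD45A fell to 81.29 and 79.89 CPM, against 133.8 and 132.0 CPM (-0.71 ± 0.07). Apoptosis regulators were mixed, with 5 of 22 tested higher and 3 lower (28.7% and 17.6% of all genes tested). Among pro-survival genes XIAP, an inhibitor of caspases, had 66.0 and 65.06 CPM with AS1949490, against 21.73 and 37.88 CPM with DMSO (1.16 ± 0.22). BIRC3, of the same group, fell to 29.83 and 32.58 CPM, against 41.92 and 56.67 CPM (-0.63 ± 0.14). Pro-apoptotic genes had 3 rises and 2 falls among 14 tested. The rises were APAF1, CASP9 and CASP8, of which APAF1 was not called in the centred fit. Of 18 cytosolic heat shock genes 5 rose and 4 fell, near the shares over all genes tested. In the centred fit 5 rose and 8 fell. DNAJB4 was highest on the deposited CPM (1.42 ± 0.12).

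Of 14 histone genes 8 rose, all from the HIST clusters, and 3 fell, which were the variant and replacement histone genes H2AFX, H2AFZ and H1F0. HIST1H1C, a linker histone, was at 13.34 and 13.29 CPM with AS1949490, against 7.194 and 5.947 CPM with DMSO (0.92 ± 0.12). Histone genes are near copies and are uncertain. Mesenchymal genes were mixed, with 3 of 11 higher and 5 lower, where 28.7% of all genes tested rose and 17.6% fell. TNC, tenascin C, rose to 130.9 and 123.8 CPM with AS1949490, against 49.36 and 56.22 CPM with DMSO (1.26 ± 0.09), and CDH2, N-cadherin, fell to 105.6 and 95.88 CPM, against 127.7 and 164.9 CPM (-0.52 ± 0.12). Among 19 matrix protease and inhibitor genes 4 rose and 5 fell, against 4 and 8 in the centred fit, with MMP14 up (0.78 ± 0.08) and MMP2 down (-0.59 ± 0.10). Of 10 long noncoding RNAs 4 rose and 3 fell, against 1 and 4 in the centred fit. The rise called in both was that of NORAD, and NEAT1 was among the falls.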
